A study of Mus musculus with 25 samples.

Results

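Rrm1, Tyms and Dck encode 3 enzymes that supply deoxynucleotides, the building blocks of DNA. They were chosen by name among the mRNA probes of the study's supplementary list of changed transcripts, of which a part was at hand. They are 3 of the 1170 mRNA genes named there, and each had 1 probe in the part at hand. Any other probe of these genes among the 35979 probes with values had no name here. That list holds transcripts which the study picked on these same arrays because they changed, so a change over time in a listed gene is not independent evidence. Livers came from male Balb/c mice, 8 weeks old per the labels, that underwent 2/3 partial hepatectomy (PHx, removal of about the named share of the liver, after which the rest regrows) and were collected at 4, 12, 36 or 72 hours, or that underwent sham surgery and were collected at 4 hours. Each of the 5 groups had 5 mice and 1 array per mouse, 25 arrays in all. The labels name no transgene, mutant allele or drug in any group. The sham livers were the control for every time point, so the later PHx groups differed from them in hours since surgery as well as in PHx. The measured value was the probe intensity of a single-colour microarray, deposited on a linear scale and already scaled between arrays. The levels of different probes cannot be set against each other, so the genes were compared through their changes. PHx was compared with sham livers to learn which transcripts change while the liver regrows.

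A dividing cell has to enlarge its pool of deoxynucleoside triphosphates before it copies its genome. Ribonucleotide reductase makes deoxynucleotides from ribonucleotides; Rrm1 is its large, catalytic subunit, which works with a small subunit. Tyms, thymidylate synthase, makes thymidylate, the precursor found only in DNA, by transferring a one-carbon unit from folate. Dck, deoxycytidine kinase, takes the salvage route and phosphorylates deoxycytidine, deoxyadenosine and deoxyguanosine taken up or recycled by the cell. In resting adult liver most hepatocytes are out of the cell cycle, and after PHx many of them enter S phase in a fairly synchronous wave.

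All 3 genes rose at 36 hours, by different amounts. At 12 hours against sham and at 72 against 36 hours, Tyms changed differently from Rrm1 and Dck. The 250 bases before the annotated start of each gene are shown here as a description. They are RefSeq sequences of the build GRCm38.p6, written in the direction of the gene, with capitals marking the letters of 4 promoter motifs searched on both strands: the E2F motif, taken as TTCGCGC or one of its variants TTGGCGC as well as TTCCCGC, with TTGGCGG as the last form, the CCAAT box by the letters of its name, the GC box as GGGCGG, and the CHR element, taken as TTTGAA with TTCGAA as its other form.
Rrm1, chr7:102441445-102441694, plus strand: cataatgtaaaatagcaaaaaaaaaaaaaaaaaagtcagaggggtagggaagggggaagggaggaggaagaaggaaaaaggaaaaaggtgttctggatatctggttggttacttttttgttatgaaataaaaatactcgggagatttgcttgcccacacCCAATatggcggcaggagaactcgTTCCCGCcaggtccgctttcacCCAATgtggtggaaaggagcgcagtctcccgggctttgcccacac
Tyms, chr5:30073626-30073875, minus strand: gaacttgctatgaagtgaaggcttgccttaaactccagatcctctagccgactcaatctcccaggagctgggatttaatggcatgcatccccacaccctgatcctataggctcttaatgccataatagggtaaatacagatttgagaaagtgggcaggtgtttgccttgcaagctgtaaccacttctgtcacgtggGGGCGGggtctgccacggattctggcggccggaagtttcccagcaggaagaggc
Dck, chr5:88764763-88765012, plus strand: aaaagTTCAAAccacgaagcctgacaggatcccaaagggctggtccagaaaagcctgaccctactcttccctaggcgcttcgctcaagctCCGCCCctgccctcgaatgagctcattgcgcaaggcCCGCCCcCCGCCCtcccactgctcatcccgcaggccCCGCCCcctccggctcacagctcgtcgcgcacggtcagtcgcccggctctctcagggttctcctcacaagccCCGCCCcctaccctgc
The 3 stretches differed in base composition and in the motifs they held. Rrm1 had 46.0% G and C, 1 E2F match (TTCCCGC) that began 67 bases before the start, and 2 CCAAT boxes that began 91 and 45 bases before it. Tyms had 52.0% G and C and 1 GC box, which began 54 bases before the start. Dck had 66.0% G and C and 5 GC boxes, read on the opposite strand and beginning 160, 124, 117, 88 and 16 bases before the start, and 1 CHR match (TTTGAA, opposite strand) that began 245 bases before it. Letters on the opposite strand appear in the printed direction as their reverse complement. No motif was found in all 3. Among 32851 promoters of the same length, 8.45% held an E2F match, 33.8% a CCAAT box, 32.7% a GC box and 17.1% a CHR match. E2F proteins, NF-Y, Sp1 and the DREAM complex are the factors known to use these letters; a match is a description of the letters, not a site shown to be used in liver.

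Rrm1 was upregulated from 12 hours, was highest at 36 hours and was partly down again at 72 hours. Its intensities were 737, 699, 673, 592 and 778 in sham livers, 688, 738, 701, 754 and 728 in livers 4 hours after PHx, then 1025, 913, 993, 989 and 881 at 12 hours. The 36 hour livers gave 5534, 7842, 7185, 5564 and 4670, and the 72 hour livers gave 2344.5, 1904, 1998, 2760.2 and 2509.55. The 4 hour and sham arrays overlapped, and every array at 12, 36 and 72 hours was above every sham array. At 4 hours the log2 fold change against sham was 0.06 with a standard error of 0.11 (adjusted p = 0.847, limma). At 12 hours it was 0.47 with a standard error of 0.11 (adjusted p = 0.00241). The rise at 12 hours was thus small but larger than the spread between mice. At that time 16.3% of all probes were called higher, and 10.4% had arrays that all lay above the sham arrays. At 36 hours Rrm1 was 8.73-fold higher than in sham livers, a log2 fold change of 3.13 with a standard error of 0.11 (adjusted p = 9.26e-16), and stood at place 54 of 35979 probes ordered by their change. At 72 hours it was 3.29-fold higher (log2 fold change 1.72, adjusted p = 7.48e-11). The levels ran in the order 36, 72, 12 and 4 hours, then sham, and only the last pair of neighbours did not differ beyond its spread.

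Tyms, in contrast, showed no change that passed the test at 4 or 12 hours, and its arrays at 72 and 36 hours overlapped. Its intensities were 1179, 1005, 929, 978 and 1064 in sham livers, 1086, 985, 1267, 1013 and 1033 in the 4 hour group, then 1013, 1098, 974, 866 and 984 at 12 hours. The 36 hour livers gave 3387, 5505.5, 5130.25, 3257.5 and 2539.8, and the 72 hour livers gave 2928, 3229, 3635, 3079.95 and 3717. The sham, 4 hour and 12 hour arrays overlapped each other, as did those at 36 and 72 hours, and the later pair of groups lay wholly above the earlier 3. The log2 fold change against sham was 0.06 at 4 hours (adjusted p = 0.878) and -0.06 at 12 hours (adjusted p = 0.801). At 36 hours Tyms was 3.70-fold higher than in sham livers, a log2 fold change of 1.89 with a standard error of 0.15 (adjusted p = 3.69e-10, limma), and at 72 hours it was 3.22-fold higher (log2 fold change 1.68, adjusted p = 4.15e-09). The thymidylate enzyme therefore had the smallest rise of the 3 at 36 hours in these arrays. Between 72 and 36 hours its log2 difference was -0.20, with a 95% confidence interval of -0.50 to 0.10 (limma, adjusted p = 0.505), a range that holds 0 as well as a fall of 0.50. The fit used 1 spread for all groups, while the standard deviation was 0.47 at 36 hours and 0.15 at 72 hours. The interval thus does not allow for the wider spread at 36 hours. The log2 difference was -0.068 without 36 hour mouse 2, -0.093 without 36 hour mouse 3 and -0.35 without 36 hour mouse 5, and passed the test in none of these.

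Dck followed a course between those of the other 2 genes at 36 hours. Its intensities were 225, 222, 202, 196 and 249 in sham livers, 194, 272, 227, 206 and 199.5 in the 4 hour group, then 244.5, 302, 281, 250.45 and 255 at 12 hours. The 36 hour livers gave 1029.65, 1623, 1585, 1366 and 1076, and the 72 hour livers gave 547.5, 552, 487, 659.95 and 539. The 36 hour arrays were all above the 72 hour arrays, and both were above every sham, 4 hour and 12 hour array. The log2 fold change was 0.00 at 4 hours (adjusted p = 0.999). At 12 hours Dck was 0.29 above sham on the log2 scale, with a 95% confidence interval of 0.04 to 0.53, and did not pass the test (adjusted p = 0.0717, limma over all 25 arrays); the arrays overlapped. This value lay near the threshold: the adjusted p was 0.0279 when only the sham and 12 hour arrays were fitted and 0.0472 without sham mouse 5. At 36 hours Dck was 6.02-fold higher than in sham livers, a log2 fold change of 2.59 with a standard error of 0.12 (adjusted p = 3.22e-14), and at 72 hours it was 2.54-fold higher (log2 fold change 1.35, adjusted p = 5.64e-09). Its levels ran in the order 36 and 72 hours, then 12 hours, 4 hours and sham, with no step among the last 3 that passed the test.

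**Figure D1:**
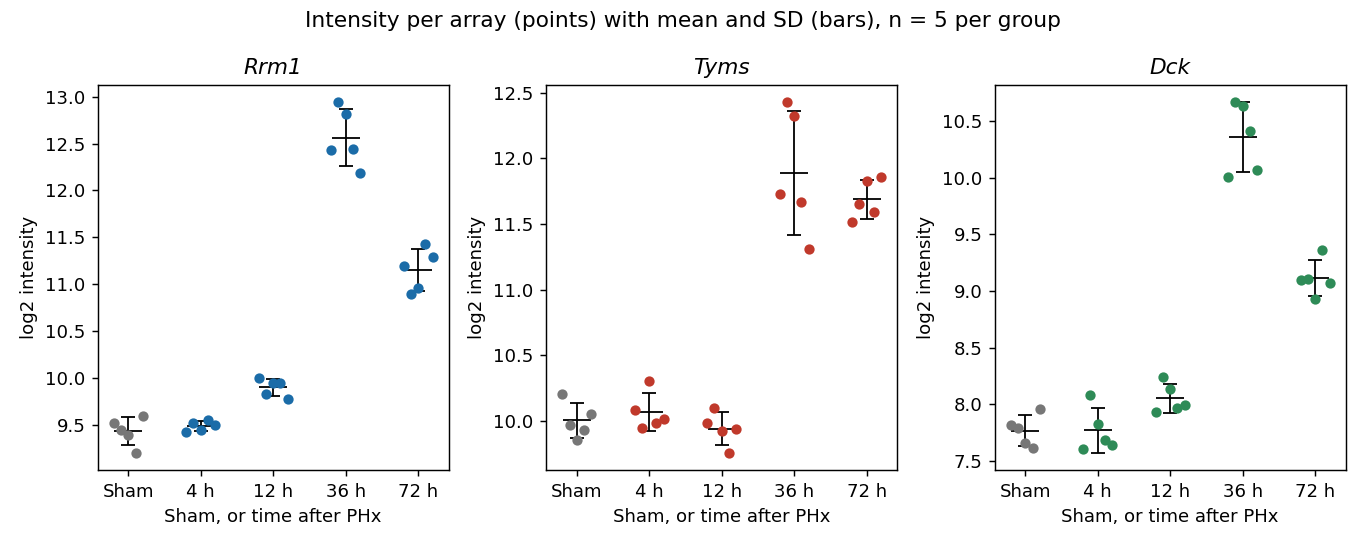
Log2 intensity of Rrm1, Tyms and Dck on each array (points; y axis, with its own range in each panel) in sham livers and at each of the 4 times after PHx (x axis), with the mean and SD of the 5 mice as bars. Rrm1 and Dck were highest at 36 hours and lower at 72 hours, while the Tyms points at 36 and 72 hours overlap.

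All 3 genes were called higher at 36 hours and at 72 hours, where 13.6% and 15.1% of all probes were called higher. In all 3 the 36 hour and 72 hour arrays lay above the sham arrays with no overlap, which held for 10.3% of all probes at 36 hours and 11.0% at 72 hours. At 4 hours none of the 3 was called in either direction, against 6.12% of probes called higher and 6.35% called lower. Over the whole course, the F test of the 4 comparisons with sham gave adjusted p values of 3.94e-16 for Rrm1, 4.70e-12 for Tyms and 1.39e-14 for Dck, and the groups accounted for 98.1%, 94.2% and 97.0% of the variance between arrays. Changes of this kind were widespread on the array, since 32.2% of probes passed the same F test with at least 60% of their variance accounted for by the groups. In bulk liver, more cells that express a gene and more RNA per cell cannot be told apart, nor can fewer cells and less RNA per cell.

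The successive time points placed most of the rise in the same interval in all 3 genes, between 12 and 36 hours. At 36 against 12 hours the log2 fold change was 2.66 for Rrm1 (adjusted p = 1.08e-14), 1.95 for Tyms (adjusted p = 1.59e-10) and 2.30 for Dck (adjusted p = 2.37e-13), where 14.4% of probes were called higher. In the step before that, at 12 against 4 hours, Rrm1 rose by 0.41 (limma, adjusted p = 0.00764). Tyms was at -0.12 (limma, adjusted p = 0.637) and Dck at 0.29 (limma, adjusted p = 0.0822). There, 14.0% of probes were called higher, and whether the 3 genes differed from each other in this step was not tested. The Dck step passed the test without 4 hour mouse 2, the highest of its group (log2 fold change 0.36, adjusted p = 0.0244). At 72 against 36 hours Rrm1 fell by 1.41 on the log2 scale (adjusted p = 8.35e-09) and Dck fell by 1.24 (adjusted p = 9.82e-08), where 4.54% of all probes were called lower and 3.91% had no overlap in that direction. Of the 4876 probes called higher at 36 hours than in sham livers, 21.6% were called lower at 72 than at 36 hours, as Rrm1 and Dck were, and 72.6% were still called higher at 72 hours than in sham livers, as all 3 genes were. Measured on the log2 scale, 55.0% of the Rrm1 rise at 36 hours was left at 72 hours, 52.0% of the Dck rise and 89.3% of the Tyms rise. On the linear intensity scale, between geometric means, the shares were 29.7% for Rrm1, 30.7% for Dck and 82.1% for Tyms, so the order of Rrm1 and Dck depended on the scale and Tyms kept the largest share on both.

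Whether the genes changed by different amounts was tested on their difference on each array, which cancels what an array does to both probes alike. Of 9 such comparisons, 7 gave p = 0.00794 in the two-sided exact permutation test, the smallest that 5 arrays against 5 can give, with an adjusted p of 0.0102 over the 9. Rrm1 rose more than Tyms, by 0.53 on the log2 scale at 12 hours and by 1.24 at 36 hours against sham, and then fell more, with a difference of -1.21 at 72 against 36 hours. The change of Dck likewise exceeded that of Tyms, by 0.35 at 12 hours and 0.70 at 36 hours, with a difference of -1.04 at 72 against 36 hours. Between Rrm1 and Dck the difference passed the test at 36 hours, where Rrm1 rose by 0.54 more (exact permutation p = 0.00794, adjusted p = 0.0102). At 12 hours their difference was 0.18 (exact permutation p = 0.0635, adjusted p = 0.0714), and without 12 hour mouse 2, which had the highest Dck value of its group, it was 0.25 and passed (adjusted p = 0.00893). At 72 against 36 hours it was -0.16 (exact permutation p = 0.143, adjusted p = 0.143). In sham livers 65.8% of all probes were dimmer than the Dck probe, 79.9% were dimmer than that of Rrm1 and 83.9% than that of Tyms, and background left in the values lowers the fold of a dim probe more. With normexp background correction at an offset of 16, the Rrm1 minus Dck difference at 36 hours was 0.43 and passed (exact permutation, adjusted p = 0.0102). That setting adds the offset back to every value, while the first quartile of the arrays was 63.95 to 64.95. It therefore cannot show how much of the difference remaining background accounts for, which was not tested.

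**Figure D2:**
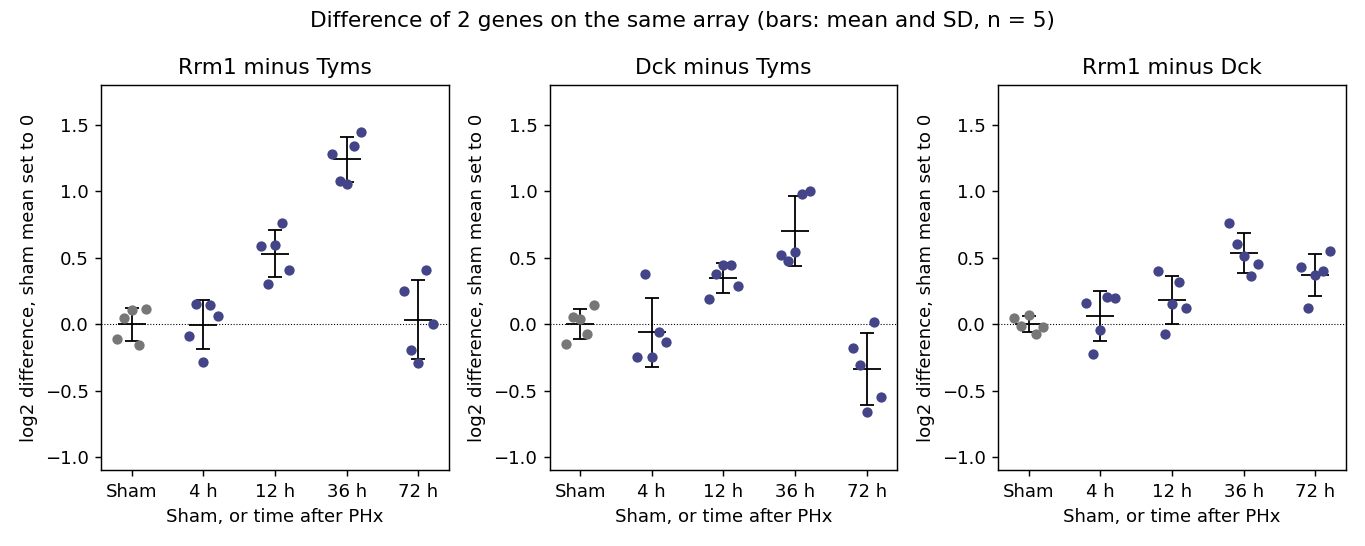
Difference in log2 intensity between 2 genes on the same array (y axis, with the sham mean set to 0) in sham livers and at the 4 times after PHx (x axis); points are arrays and bars the mean and SD of 5. Rrm1 minus Tyms stands about 1.24 above sham at 36 hours and is back near the sham arrays at 72 hours.

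The 5 mice at 36 hours differed more in these genes than the mice of the other groups, though the difference in spread was not tested. The coefficient of variation at 36 hours was 21.2% for Rrm1, 32.4% for Tyms and 20.7% for Dck, while in the other 4 groups it ran from 3.74% to 15.4% for Rrm1, 8.44% to 10.4% for Tyms and 9.10% to 14.4% for Dck. Mice 2 and 3 had the highest values at 36 hours in all 3 genes, and mouse 5 the lowest in Rrm1 and Tyms. The Tyms value of mouse 2 was 2.17 times that of mouse 5. The same 2 mice were highest for 5 of the 6 MCM subunits, which form the helicase that opens DNA at origins, and for 7 of the 7 named subunits of the replicative DNA polymerases and primase. Mouse 5 was lowest for 2 of the 6 MCM subunits and 5 of the 7 polymerase and primase subunits. How often this order of mice held over all probes is not given here, so it is not shown to be particular to these genes. Across the 25 arrays, the deviations from the group means correlated at 0.60 between Rrm1 and Tyms, 0.67 between Rrm1 and Dck, and 0.53 between Dck and Tyms. Without the 36 hour arrays, the values over 20 arrays were -0.06, 0.47 and 0.04 in that order of pairs, so the link of Tyms with the other 2 genes lay in the 36 hour mice. The 2 probes of each pair were read on the same array and share its scaling. What sets the 36 hour mice apart was not tested.

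**Figure D3:**
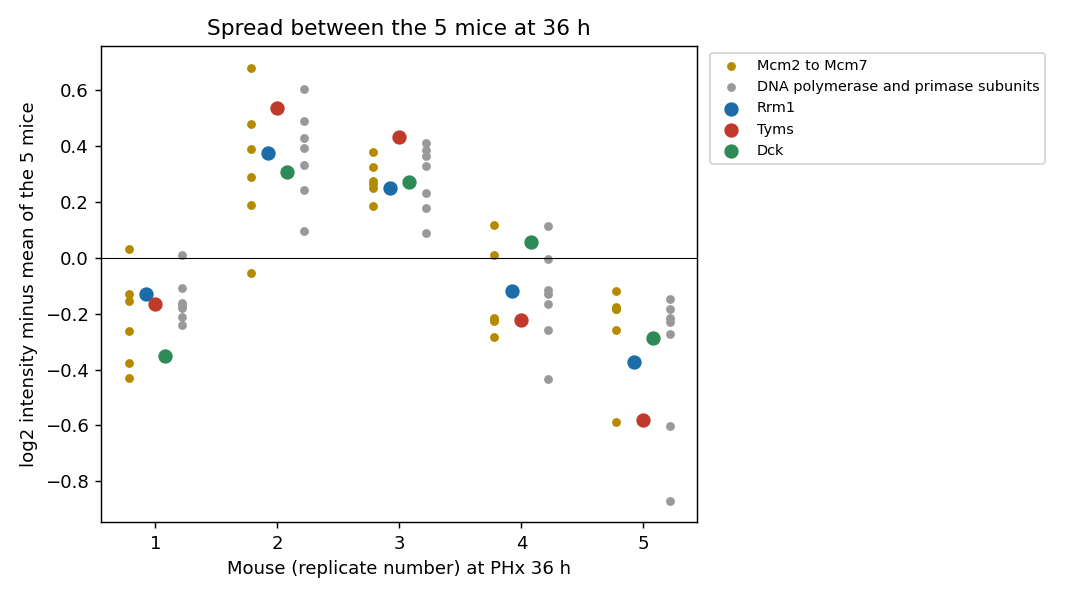
Log2 intensity minus the mean of the 5 mice at 36 hours after PHx (y axis) for each mouse (x axis); large points are Rrm1, Tyms and Dck, small points the 6 MCM subunits (left) and 7 polymerase and primase subunits (right). Mice 2 and 3 are highest for all 3 genes and for all 7 polymerase and primase subunits.

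The course of the 3 genes was set beside that of the replication machinery that uses deoxynucleotides. All 6 MCM subunits and all 7 polymerase and primase subunits were called higher at 36 hours, with a median log2 fold change of 3.61 (range 2.97 to 4.64) and 2.32 (range 1.34 to 3.54), against a median of -0.01 over all probes. Rrm1, at 3.13, lay inside both ranges, Dck, at 2.59, inside the range of the polymerase group only, and Tyms, at 1.89, likewise. At 72 against 36 hours all 6 MCM subunits and 6 of the 7 polymerase and primase subunits were called lower, with medians of -1.78 and -1.26. The exception was Pole, the catalytic subunit of DNA polymerase epsilon, at -0.23 (adjusted p = 0.522), a value near that of Tyms. Of 3 regulators of S phase entry, the transcription factor E2f1 had a log2 fold change of 3.03 against sham in the 36 hour livers (adjusted p = 6.81e-13), the pocket protein Rbl1 of 2.05, and the cell cycle inhibitor Cdkn1b of -0.58, and all 3 were called. Among all probes, 13.6% were called higher and 12.5% lower at 36 hours against sham, and 4.54% lower at 72 against 36 hours. The MCM, polymerase and regulator lists were drawn from the same study-selected genes, so their counts describe the listed genes and not replication genes at large.

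**Figure D4:**
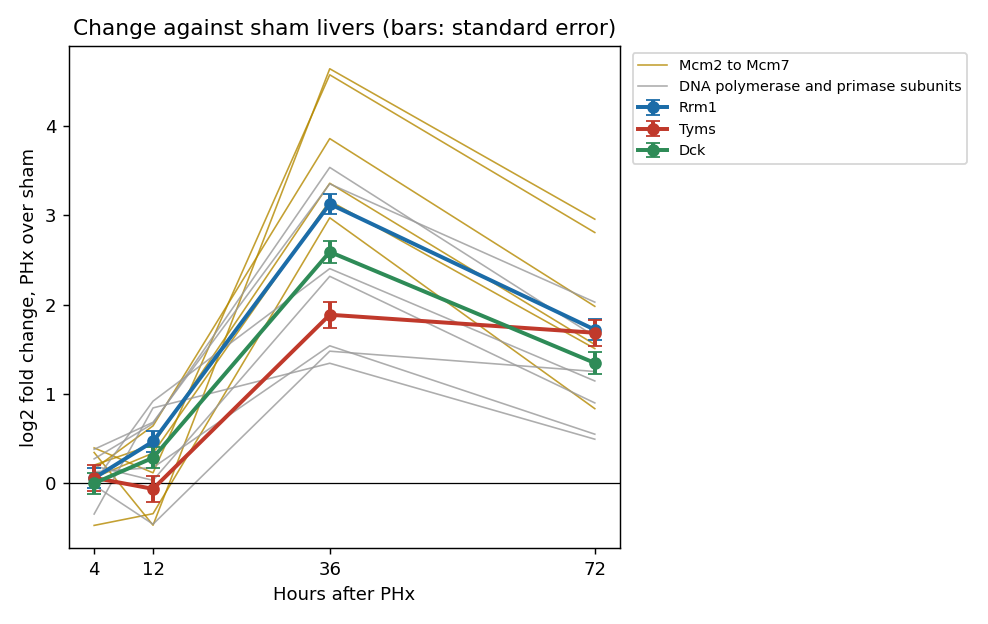
Log2 fold change against sham livers (y axis) by hours after PHx (x axis) for Rrm1, Tyms and Dck (thick lines, with the standard error as bars), Mcm2 to Mcm7 and 7 DNA polymerase and primase subunits (thin lines). Tyms stays near 0 at 12 hours and changes little between 36 and 72 hours, whereas Rrm1 and Dck fall with most thin lines.

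By the root mean square difference of the 4 log2 fold changes against sham, the named genes most like Rrm1, among 1169 others, were Mcm7 (0.13), Mcm3 (0.16), Smc2 (0.16), Lig1 (0.17) and Topbp1 (0.21). Those most like Tyms were Rad51b (0.13), Kif20b (0.13), Bub1 (0.16), Mxd3 (0.17) and Nemp1 (0.18). Those most like Dck were Cenpn (0.14), Asf1b (0.15), Traip (0.16), Ddias (0.17) and Mms22l (0.17). No gene stood in more than 1 of these 3 lists. Dck was at place 14 for Rrm1, with a difference of 0.34, and Tyms at place 81, with a difference of 0.67. Each measure rests on 4 comparisons that share the same 5 sham arrays, and is a description.

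Of 80 genes of nucleotide synthesis and salvage listed for this comparison, 8 had a named mRNA probe, the 3 genes and 5 others. Of those 5, in time order from 4 to 72 hours after PHx, 0, 1, 4 and 3 were called higher, and 1, 3, 1 and 1 were called lower. The shares of all probes called higher at these times were 6.12%, 16.3%, 13.6% and 15.1%. Those called lower were 6.35%, 15.1%, 12.5% and 13.1%. The 5 genes had names only because the study listed them as changed on these arrays, so the counts describe the listed genes. The median log2 fold changes of the 5 genes were 0.06, -0.34, 0.52 and 0.64. The change of each of the 5 at 36 hours was smaller in size than that of Rrm1, Tyms or Dck. Mthfd2, a mitochondrial enzyme that supplies one-carbon units from folate, was 385 to 737 in intensity at 36 hours, against a median of 224 and a lowest value of 177 in sham livers, a rise of 1.24 on the log2 scale (adjusted p = 4.57e-06) with no overlap of arrays. It was also called higher at 12 hours (log2 fold change 0.62), and at 72 hours it stood at 0.46 (adjusted p = 0.0512; 0.0395 without sham mouse 3). Among the 5 other named genes, only Mthfd2 had its highest mean at 36 hours.

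Prps2, which makes the activated ribose that nucleotide synthesis starts from, was first lower and then higher. Its log2 fold change was -0.34 at 12 hours, 0.52 at 36 hours and 0.90 at 72 hours (adjusted p = 6.22e-08), and the intensities at 72 hours, 687 to 949, all lay above the 421 to 513 of the sham livers. Cmpk2, a mitochondrial kinase of pyrimidine nucleotides, had the same order of signs, with -0.46 at 12 hours, 0.59 at 36 hours and 1.21 at 72 hours (adjusted p = 6.13e-07). Its call at 12 hours was lost without sham mouse 2 (adjusted p = 0.0599) or 12 hour mouse 4 (adjusted p = 0.0667). Dhodh, the mitochondrial step of pyrimidine synthesis, was called higher at 36 hours (0.45) and at 72 hours (0.64) only. Ak3, a mitochondrial kinase that uses GTP to phosphorylate AMP, was called lower at every time, with log2 fold changes of -0.41, -0.61, -0.76 and -0.61 in time order. Its call at 4 hours was lost without sham mouse 3 (adjusted p = 0.0503) or 4 hour mouse 2 (adjusted p = 0.0607). Both Prps2 and Cmpk2 were called higher at 72 than at 36 hours, a step at which Rrm1 and Dck fell and 5.37% of all probes were called higher.

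A probe listed as a putative long noncoding RNA, AK080078, carries the name of Dtymk, the kinase that acts on thymidylate after Tyms. No probe sequence was at hand, so whether this probe also reads the Dtymk mRNA is not known. The intensities of the probe at 36 hours were 145.45, 235.8, 214.45, 167.45 and 147.5, against 81.15, 74.1, 62.6, 71.55 and 89.55 in sham livers. The groups did not overlap, and the log2 fold change was 1.25 (adjusted p = 7.81e-09). It was 0.33 at 12 hours (adjusted p = 0.0324), 0.38 at 72 hours (adjusted p = 0.0134) and -0.86 at 72 against 36 hours. The call at 12 hours was lost without any 1 of sham mice 2, 3 and 4 and 12 hour mice 1, 4 and 5 (adjusted p of 0.0522 to 0.103). This probe is dim, with 37.8% of all probes dimmer in sham livers, and background left in the values would lower its fold change.

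**Figure D5:**
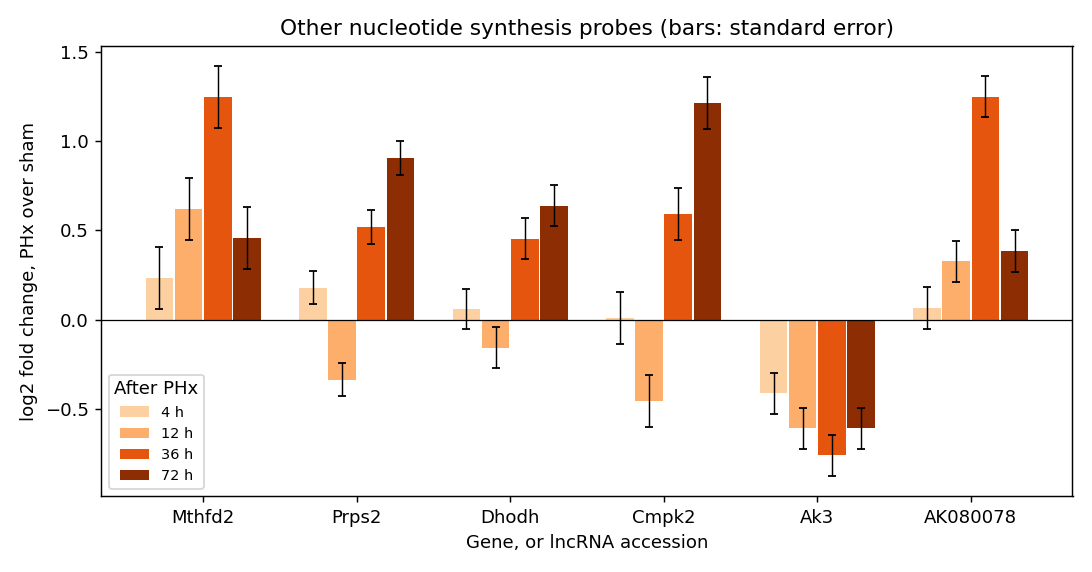
Log2 fold change against sham livers (y axis; bars are the standard error) of the 5 other nucleotide genes and the putative noncoding RNA AK080078 (x axis), with 1 bar for each time after PHx (4 to 72 hours, light to dark). Mthfd2 and AK080078 are highest at 36 hours, Prps2, Dhodh and Cmpk2 at 72 hours, and Ak3 is below sham at every time.

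The arrays had medians of 97.7 to 102.7 in intensity, and arrays of 1 group correlated at 0.981 to 0.996 with no identical pair. A correlation over all probes mostly reflects differences between probes and cannot show whether an array stood apart. Of 13 housekeeping genes, 1 had a named probe, Tbp, which also came from the study's list of changed transcripts. It was called lower at every time, with log2 fold changes of -0.68, -0.86, -0.92 and -1.06 in time order. Hepatocyte markers were present: 3 of 10 had a named probe (Arg1, F2 and F9), their summed intensity was 71229 to 87698 at 36 hours, against 100613 to 109294 in sham livers, and all 3 were called lower at 36 hours. The 1 named endothelial marker of 7 (Clec1b), the 1 stellate marker of 7 (Col14a1) and the 1 cholangiocyte marker of 6 (Anxa4) were also called lower at 36 hours, and no Kupffer cell or leukocyte marker had a named probe. Among all probes, 12.5% were called lower at that time. A marker had a name only where the study listed it as changed on these arrays. These calls therefore do not describe liver cell markers at large. The part of cell composition in the rise of Rrm1, Tyms and Dck was not tested.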

How the data were processed

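Total liver RNA of 25 mice was hybridised to NCode Mouse Non-coding RNA Microarrays with the Cy3 dye, 1 array per mouse. The deposited table holds intensity values on a linear scale for 35981 probes, which the authors had scaled between arrays; how they did so is not stated for these values (the study's methods name vsn, but the values are not on its log-like scale). No detection calls or background values were used here. In this work, 2 blank probes were left out, log2 was taken with no background subtraction, and a model of group means over all 25 arrays was fitted with limma 3.58.1 (R 4.3.3) with Benjamini-Hochberg adjustment over 35979 probes. A probe was called at an adjusted p under 0.05. The F test of the 4 comparisons with sham, with R-squared of at least 0.6, stood in for the time course regression that the study's methods name. The fit was tested on simulated data. Differences between 2 genes were tested per array with two-sided exact permutation tests.

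Gene names came from 1998 rows at hand of the study's supplementary list, updated to current symbols through RefSeq gene tables; probes outside those rows were not named here. The labels place samples in groups, and each number of mice limits the precision. In the main fit, the limma p-values rest on the spread between mice within groups. That spread was pooled over the 5 groups of 5 mice and drawn toward that of all probes. The exact permutation p-values rest on the arrays of the 2 groups compared. The named genes were Rrm1, Tyms and Dck, the other nucleotide genes with a named probe, the 5 genes with the closest course to each and the comparison lists. These genes, lists and tests were chosen with earlier results of these data known. The replicate numbers did not pair the samples. Alternatives were quantile normalization, normexp background (offset 50, and an offset of 16 that was chosen after seeing the data), a filter on the dimmest 30% of probes, trend and robust prior, centring arrays on the median, fits of only the 2 groups compared, the methods' t-test, cubic regression on hours, a replicate block and leaving out each array.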

Additional observations from a re-analysis of the deposited data

How the results depend on the processing

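Of the results for Rrm1, Tyms and Dck under the alternatives, 408 of 420 kept their direction and side of the threshold, as did 116 of 117 for the differences between 2 of them. Dck at 4 hours had no settled sign: it was -0.011 with normexp at an offset of 50, -0.015 at 16, and -0.079 to 0.048 with 1 array left out. Dck at 12 hours, 0.29 against sham, passed in the limma fit of the 2 groups alone (adjusted p = 0.0279). It also passed in the methods' t-test, both after Benjamini-Hochberg and unadjusted, and was 0.24 to 0.33 with 1 array left out. Dck at 12 against 4 hours, also 0.29, passed in the methods' t-test unadjusted and was 0.24 to 0.36 with 1 array left out. Rrm1 minus Dck at 12 hours was 0.13 to 0.25. Among the other probes at 4 hours, with no call, Cmpk2 was -0.0087 with normexp at an offset of 50, -0.0086 at 16, and -0.057 to 0.081 with 1 array left out, Dhodh -0.0032 to 0.11 and AK080078 -0.0017 to 0.13. The methods' t-test changed counts over all probes: unadjusted it called 4577 higher and 3888 lower at 4 hours (2202 and 2283 in limma), and 3752 higher and 3394 lower at 72 against 36 hours (1933 and 1634 in limma), and with Benjamini-Hochberg 1080 lower there. Of the 5 other nucleotide genes, 0 were lower at 4 hours in that test with Benjamini-Hochberg, and 0 to 1 with 1 array left out (0 without sham mouse 3 or 4 hour mouse 2). The cause of these shifts was not tested. The F test called 7775 probes under the cubic regression, 11586 under group means and 14664 with the replicate number as a block, where R-squared also counts the variance taken by the block. The cubic regression placed the sham arrays at 0 hours, although these livers were collected at 4 hours. Replicate numbers gave no pairing: over 50 same-numbered pairs the correlation of deviations had a median of 0.0033, and 8 exceeded 0.1, and a sample correlated best with its own number in 10 of 100 cases. With the replicate number as a block, 4775 probes were higher and 4451 lower at 36 hours, against 4876 and 4481 without it, Rrm1 had a log2 fold change of 3.13 (adjusted p = 3.41e-13), and no call of the 3 genes changed. Background left in the deposited values would lower the fold of a dim probe more, and none was subtracted in the main fit.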
